A study of Homo sapiens with 4 samples.

Results

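The microRNA machinery is represented here by 10 genes, namely DROSHA, DGCR8, XPO5, DICER1, TARBP2, AGO1, AGO2, AGO3, TNRC6A and TNRC6B. The rule that picks them uses gene names and no measured value, out of 43310 gene names on the array, and all 14 probes that carry one of these names were taken. XPO5 had 3 probes, AGO1 and AGO3 had 2 each, and the other genes had 1 each. All 14 probes were well above background on all 4 arrays by the mark that the scanner software sets, so no gene was lost to a filter on dim signal. The same rule of signal, applied to other genes, is meant below by a measured gene.

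The arrays hold total RNA of 2 human cancer cell lines, HCT116 from a colorectal cancer and A549 from a lung cancer. Each line was transfected by the same lipid reagent, Dharmafect1, with the microRNA miR-891b or with NC1, the negative control RNA. Each of the 4 combinations of line and transfected RNA has 1 array, so every culture has received a small RNA and untransfected cells are not among the groups. The study's title concerns PSAT1 and the release of extracellular vesicles, and the labels give neither the dose nor the time after transfection. With 1 array per group, no difference within a line has a replicate check. Both arrays of a line share a slide and a scan, so line and slide cannot be told apart.

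A microRNA is cut out of a longer nuclear transcript by the Microprocessor, which consists of the nuclease DROSHA and the RNA-binding protein DGCR8. Exportin 5, made from XPO5, carries the hairpin to the cytoplasm, where DICER1 with its partner TARBP2 cuts it to a short duplex. One strand is loaded into an Argonaute protein (AGO1, AGO2, AGO3), and a TNRC6 protein bound to the Argonaute recruits the enzymes that shorten the tail of the target mRNA and remove its cap. A transfected microRNA mimic is a ready-made duplex, which does not need the nuclear steps but does need the Argonaute and TNRC6 proteins.

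The transfected RNA is shown first because its seed, bases 2 to 8, is what an Argonaute uses to find targets. The sequence is that of RefSeq on GRCh38.p14, at chrX:146001100-146001121 on the minus strand, with the seed in capitals.
hsa-miR-891b: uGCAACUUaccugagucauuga
Of 2545 mature microRNAs in the RefSeq table, 1 had this seed, miR-891b itself. The complement of the seed in DNA letters, AAGTTGC, was searched in the probe sequences on the strand of the transcript. It occurred in 0 of the 14 machinery probes and in 229 of all 58201 gene probes (0.393%), and a probe covers only 60 bases of a transcript.

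Genes of the machinery can themselves carry microRNAs. The Microprocessor is known to cleave hairpins in the DGCR8 transcript, which lowers DGCR8 mRNA. The mature sequences that RefSeq places within the DGCR8 gene are printed because DGCR8 differed most between the lines. They lie on chromosome 22 of GRCh38.p14, plus strand, at chr22:20085797-20085818, chr22:20086072-20086093 and chr22:20086112-20086129, with seeds in capitals.
hsa-miR-3618: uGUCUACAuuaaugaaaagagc
hsa-miR-1306-5p: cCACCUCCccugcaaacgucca
hsa-miR-1306-3p: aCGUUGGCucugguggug
Their seeds differ from one another and from that of miR-891b, and each was found in 1 mature microRNA of the table. A search of the other genes, which left out AGO2, found mature microRNAs within the span of DICER1 only. The array measures long transcripts and gives no level for any mature microRNA.

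Levels are given as log2 of the processed signal minus the 75th percentile of the same array, so that 0 is the signal below which 75% of the array's gene probes lie. A difference of 1 is 2-fold, and differences of at least 2-fold were counted as called. Probes differ in brightness for reasons other than transcript number, so the level of a gene is compared only between arrays. Where a gene has several probes, its values are those of the brightest unless stated.

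**Figure D1:**
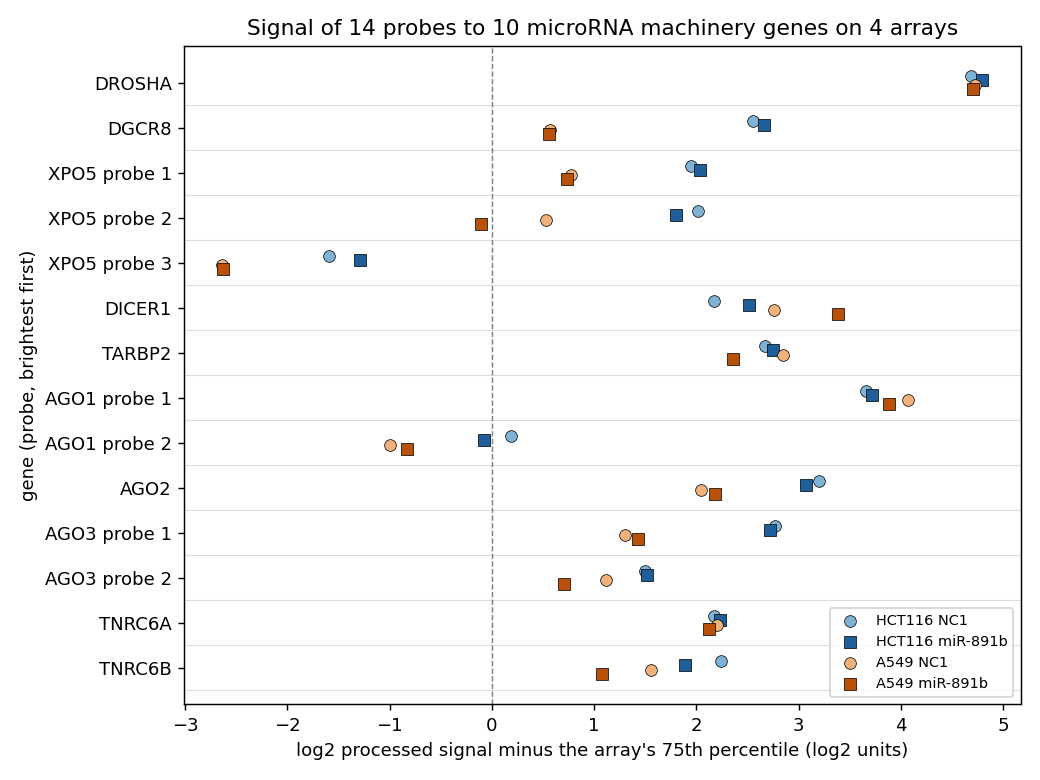
Each row is 1 probe and each point 1 array; the horizontal axis is the log2 level relative to the 75th percentile of the array, with circles for NC1, squares for miR-891b, blue for HCT116 and orange for A549. DGCR8 separates by line, with 2.56 and 2.66 in HCT116 against 0.56 on both A549 arrays, while the 4 points of DROSHA lie between 4.69 and 4.80.

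On the 4 arrays 44.7% to 50.3% of 58201 gene probes were well above background and none was saturated. HCT116 miR-891b stood apart, with 10.8% of its gene probes in disturbed areas, where at least 10% of nearby dim spots lit up on 1 array alone. The other arrays had 0.022% to 2.29%. Among the machinery genes, TNRC6B and 1 spot of AGO2 lay in such areas. Signals at the 75th percentile ran from 54.9 to 74.8 intensity units. Probes printed at 5 or more spots gave a median SD of a log2 difference between 2 spots of 0.080 in HCT116 (276 probes) and 0.081 in A549 (287 probes). This spread covers the spots only, and not the cultures or the labelling. Of 8 genes listed as HCT116 markers, 6 were measured in both lines with NC1 and 4 of them were at least 2-fold lower in A549. Against its label, ELF3 was 3.07-fold higher in A549, and LGALS4, not well above background in HCT116, was at least 18.3-fold higher. Of 6 measured A549 markers, 5 were at least 2-fold higher there, and SFTA1P was 2.16-fold lower. The fibroblast markers COL1A2, COL3A1, DCN and FAP were not well above background on any array, COL1A1 and PDGFRB were on all 4, and LUM and THY1 were on the A549 arrays only. In such bulk RNA, fewer cells that express a gene and less RNA per cell cannot be told apart.

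The first comparison asked whether miR-891b cells differed from NC1 cells in the machinery that the transfected RNA relies on. No gene of the 10 was 2-fold higher or lower in either line. Their median change was 0.072 in HCT116, where the median of 19105 measured genes was -0.041, and -0.028 in A549, where that of 21336 genes was -0.059. Among all measured genes, 0.843% were at least 2-fold lower and 1.16% at least 2-fold higher in HCT116, and 5.57% were lower and 4.01% higher in A549. Either way these are 2.0% of genes in HCT116 and 9.58% in A549. At these shares, finding 0 of 10 genes past 2-fold is close to the background. Changes outside the middle 50% of measured genes in both lines were found for DICER1, which was higher, and TNRC6B, which was lower. By definition, 50% of measured genes lie outside that range in each line. The share outside it in both lines at once was not computed, so these genes are not shown to stand out.

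**Figure D2:**
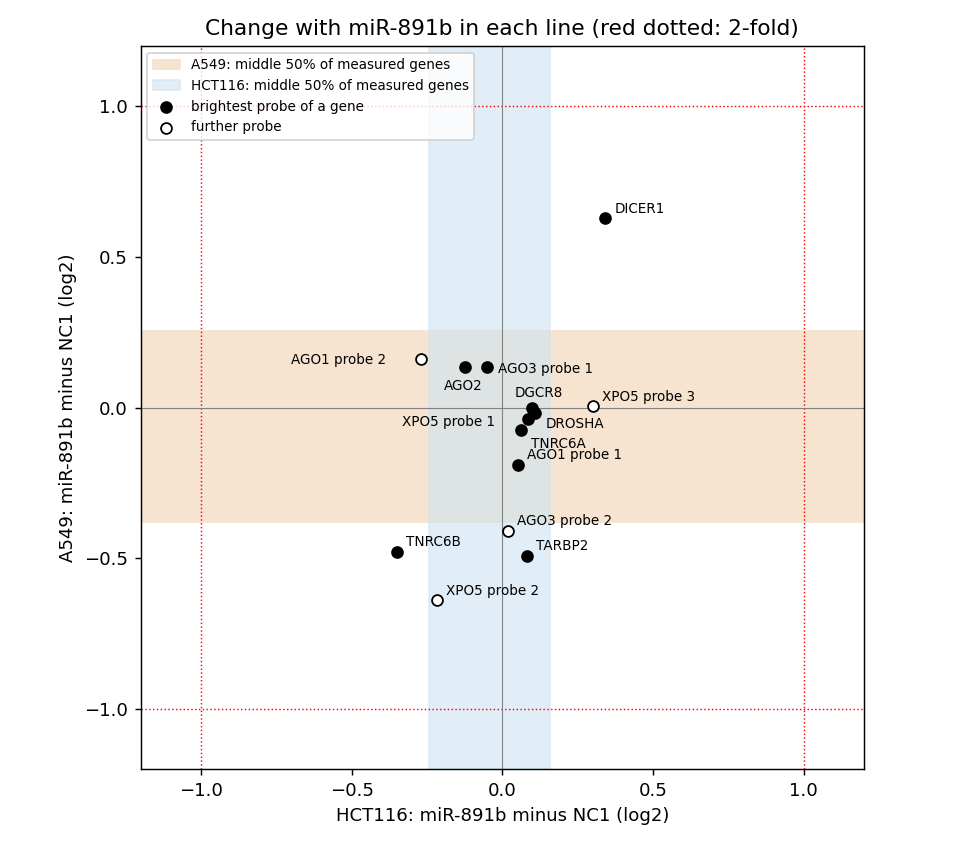
Change with miR-891b in HCT116 (horizontal) and A549 (vertical), both in log2, for 14 probes; filled points are the brightest probe of each gene, open points further probes, shading the middle 50% of all measured genes and red dotted lines 2-fold. DICER1 lies alone at upper right with 0.34 and 0.63, and TNRC6B at lower left with -0.35 and -0.48.

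DICER1, the cytoplasmic nuclease, was read by a probe at chr14:95552615-95552674 (hg19, minus strand). Its level was 2.18 with NC1 and 2.52 with miR-891b in HCT116, and 2.76 with NC1 and 3.38 with miR-891b in A549. Both miR-891b arrays therefore lay above the NC1 array of their line, and both A549 arrays above both HCT116 arrays. The change was 0.34 (1.27-fold) in HCT116 and 0.63 (1.55-fold) in A549, which is 4.30 and 7.78 times the spot-level SD. In HCT116, 11.1% of measured genes had a change at least as high, and in A549 9.89% had. Over both lines limma's additive model gave 0.48 ± 0.24 (SE) with a Benjamini-Hochberg adjusted p of 0.793. Its 95% interval ran from -0.17 to 1.14, so neither no change nor a 2-fold rise lies outside it. The probe's spot lay in no disturbed area of any array.

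TARBP2, the RNA-binding partner of DICER1, was read at chr12:53899897-53899956 (hg19). It stood at 2.67 and 2.75 in HCT116 with NC1 and miR-891b and at 2.85 and 2.36 in A549. The change was 0.083 in HCT116 and -0.49 in A549 (1.41-fold lower), so that its highest and its lowest array were both A549. In A549, 19.2% of measured genes had a change at least as low. The additive model gave -0.20 ± 0.27 (SE), with a limma adjusted p of 0.886.

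The nuclear pair showed small changes with miR-891b. DROSHA (chr5:31401473-31401532, hg19) was at 4.69 and 4.80 in HCT116 with NC1 and miR-891b and at 4.73 and 4.71 in A549. The changes were 0.11 and -0.019, the latter turning sign with the scaling, and all 4 arrays lay within 0.11. DGCR8 (chr22:20098916-20098975, hg19) changed by 0.10 in HCT116, from 2.56 to 2.66, and by -0.0010 in A549, where both arrays read 0.56 and the sign turned with the scaling. The limma estimates were 0.045 for DROSHA and 0.050 for DGCR8, with adjusted p of 0.975 and 0.971. Their 95% intervals were -0.59 to 0.68 and -0.58 to 0.68.

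XPO5, the export receptor, was read by 3 probes that did not give the same change. The first 30 bases of each are printed so that the probes can be told apart, at chr6:43490583-43490642, chr6:43494424-43494483 and chr6:43491398-43491457 (hg19, minus strand) from the brightest to the dimmest.
XPO5 probe 1: ttcacatcacaacctgtactgtgagtccat
XPO5 probe 2: gtttgctgtgtttcaaagaagggtgctgac
XPO5 probe 3: gccctgtgcaggaccagaagtaattatact
Probe 1 read 1.95 with NC1 and 2.03 with miR-891b in HCT116, and 0.77 and 0.74 in A549, which gives changes of 0.086 and -0.038, the latter turning sign with the scaling. Probe 2 read 2.02 and 1.80 in HCT116 and 0.53 and -0.11 in A549, with changes of -0.22 and -0.64. Probe 3 was dim, at -1.59 and -1.29 in HCT116 and -2.63 on both A549 arrays, with changes of 0.30 and 0.0041 (a signal of 12.0 intensity units on both A549 arrays). The A549 change thus depended on the probe, 1.56-fold lower by probe 2 and near 0 by the others. The fit on probe 1 gave 0.024 with a limma adjusted p of 0.986.

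The Argonautes, which hold the guide strand, did not change in one direction. AGO2, the member able to cut a fully paired target, was printed at 10 spots of 1 probe on chromosome 8. On HCT116 NC1 the usable spots ran from 3.11 to 3.31 with a median of 3.18, and on HCT116 miR-891b from 2.98 to 3.13 with a median of 3.09. On A549 NC1 they ran from 1.93 to 2.14 with a median of 2.04, and on A549 miR-891b from 2.08 to 2.23 with a median of 2.20. Within a line the spots of both arrays overlapped, whereas no A549 spot reached an HCT116 spot. The mean change was -0.12 in HCT116 and 0.14 in A549, and 1 of the 10 spots lay in a disturbed area of HCT116 miR-891b. Without that spot the changes were -0.12 and 0.15. The spots of an array are repeats of the reading and not of the culture.

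**Figure D3:**
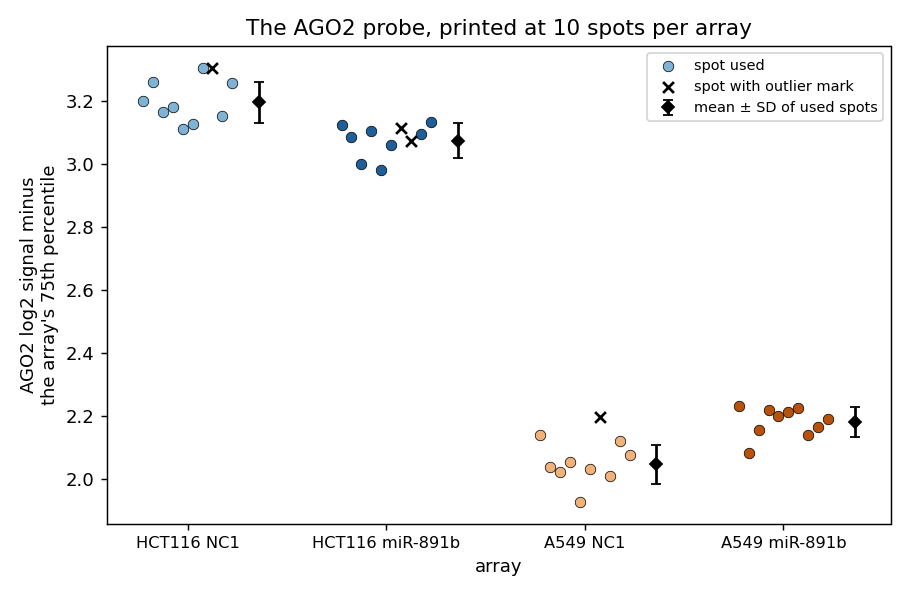
Each point is 1 of the 10 AGO2 spots on an array, with crosses for spots marked as outliers and left out; diamonds and bars are the mean and SD of the spots used. The vertical axis is log2 signal minus the array's 75th percentile; spots run from 2.98 to 3.31 on the HCT116 arrays and from 1.93 to 2.23 on the A549 arrays.

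AGO1 and AGO3 are neighbours on chromosome 1, and each was read by 2 probes. The first 30 bases of these probes are printed because they differed in their readings. They lie at chr1:36389840-36389899 and chr1:36386500-36386559 for AGO1 and at chr1:36521552-36521611 and chr1:36439052-36439111 for AGO3 (hg19, plus strand).
AGO1 probe 1: cagcagcagcagcagcacaattctgtgttt
AGO1 probe 2: ttggaaatccttcccatgcctgatgagttt
AGO3 probe 1: agccaactgctttttgtgcggtctcctata
AGO3 probe 2: tggtttggattccatcagtctgttcggcct
AGO1 probe 1 read 3.66 and 3.71 in HCT116 with NC1 and miR-891b and 4.07 and 3.88 in A549, giving changes of 0.052 and -0.19, the latter turning sign with the scaling. AGO1 probe 2 read 0.19 and -0.077 in HCT116 and -0.99 and -0.83 in A549, giving -0.27 and 0.16. The AGO1 probes thus had opposite signs in HCT116, and in A549 under the scaling used here.

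AGO3 probe 1 read 2.77 and 2.72 in HCT116 and 1.30 and 1.43 in A549, with changes of -0.050 and 0.13, the former turning sign with the scaling. AGO3 probe 2 read 1.498 and 1.52 in HCT116 and 1.12 and 0.71 in A549, with changes of 0.020 and -0.41. The fits on the brightest probes gave -0.069 for AGO1, 0.0068 for AGO2 and 0.042 for AGO3, with limma adjusted p of 0.962, 0.996 and 0.976. No common direction of the Argonautes was therefore measured.

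TNRC6B, a scaffold between Argonaute and the deadenylases, was read at chr22:40719222-40719281 (hg19). It stood at 2.24 with NC1 and 1.89 with miR-891b in HCT116, and at 1.56 and 1.08 in A549. Each miR-891b array lay below the NC1 array of its line, and both A549 arrays below both HCT116 arrays. The change was -0.35 in HCT116 (1.27-fold lower) and -0.48 in A549 (1.39-fold lower), values at or below which 16.0% and 19.8% of measured genes lay. On HCT116 miR-891b its spot lay in a disturbed area, with 11.1% of nearby dim spots lit, and the part of this in its HCT116 value was not tested. The additive model gave -0.41 ± 0.23 (SE) with a limma adjusted p of 0.793 and a 95% interval from -1.05 to 0.22. Its paralogue TNRC6A (chr16:24835610-24835669, hg19) read 2.17 and 2.23 in HCT116 and 2.20 and 2.13 in A549, and changed by 0.061 and -0.075, the latter turning sign with the scaling (limma adjusted p = 0.996).

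Over all 22712 genes entered in the additive model, 0 had a limma adjusted p under 0.05 for miR-891b (0.0%), and 1214 (5.35%) had an unadjusted p under 0.05. None of the 10 machinery genes was among the latter, and the lowest unadjusted p was 0.112, for DICER1. The lines serve as the only repeats in this model, which has 1 residual degree of freedom, and no other tool was run. The labels do not say whether the cultures were independent, so the p-values rest only on these arrays. Their residual spread is the difference between the lines in the miR-891b change, moderated by limma over all genes. A change particular to a line thus counts as spread.

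The next comparison set A549 against HCT116, as a description of what each line brings to the transfection. DGCR8, AGO3, XPO5 and AGO2 were lower in A549 by limma's line term at an adjusted p under 0.05, and 0 of the 10 genes were higher. That is 4 of 10, where 16.4% of the 22712 genes were called lower and 15.5% higher (31.9% either way). At an unadjusted p under 0.05 in this fit, 6 of 10 differed, against 46.2% of all genes. The NC1 arrays alone had the same 4 genes at least 2-fold lower, against 16.2% of 19218 measured genes lower and 11.1% higher (27.3% either way). On the miR-891b arrays 3 were, AGO2 falling short at -0.89, against 20.7% of 18576 genes lower and 11.4% higher (32.1% either way). The median line difference of the 10 genes was -0.33 with NC1 and -0.61 with miR-891b, and that of all measured genes -0.100 and -0.19. Quantile normalization moved the latter by 0.114, to -0.081. The NC1 median of the 10 genes turned to 0.034 outside disturbed areas, which leaves out AGO2 and TNRC6B. Under normexp with quantile normalization, 2 genes were 2-fold lower with NC1 (DGCR8 and AGO3) and 1 with miR-891b (DGCR8), and the medians were -0.20 and -0.35.

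**Figure D4:**
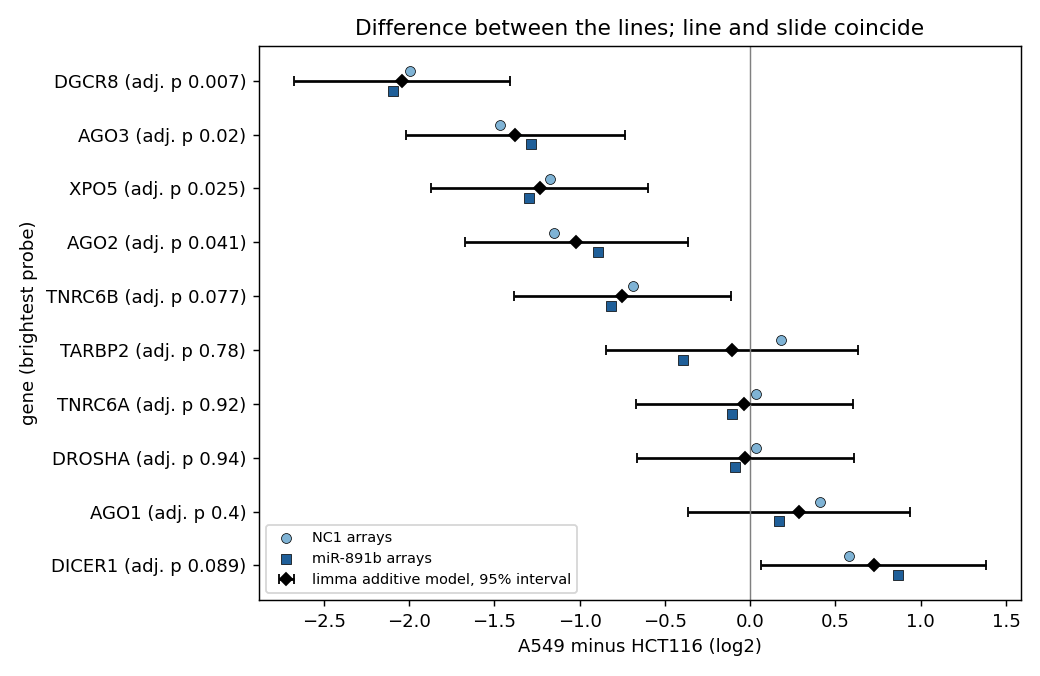
A549 minus HCT116 in log2 for the brightest probe of each gene; circles are the NC1 arrays, squares the miR-891b arrays, and diamonds with bars the limma estimate and its 95% interval, with the adjusted p beside each name. DGCR8, AGO3, XPO5 and AGO2 lie below 0 with adjusted p of 0.0070 to 0.041, and DICER1 is the highest at 0.72.

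DGCR8 showed the widest difference of the machinery. It was lower in A549 by 1.99 with NC1 (difference -1.99) and by 2.10 with miR-891b (difference -2.10), which is 3.98-fold and 4.27-fold. Only 4.79% and 4.74% of measured genes had a line difference as low. The limma estimate was -2.04 ± 0.23 (SE), with an adjusted p of 0.0070 and a 95% interval from -2.68 to -1.41. DROSHA, its partner in the Microprocessor, differed by 0.036 and, with a sign that turned with the scaling, -0.092, with an estimate of -0.028 and an adjusted p of 0.937.

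The genes with the profile nearest to that of DGCR8 over the 4 arrays, each centred on its mean, were LHX5-AS1, SNORD60 and ING1. Their root mean square distances were 0.028, 0.038 and 0.039 among 12796 genes compared. With 4 arrays this is a likeness of a line difference, and many genes can share it.

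XPO5 was lower in A549 by every probe. The differences with NC1 and with miR-891b were -1.17 and -1.30 for probe 1, -1.49 and -1.91 for probe 2, and -1.04 and -1.34 for probe 3. The limma estimate on probe 1 was -1.24 ± 0.23 (SE), 2.35-fold lower, with an adjusted p of 0.025. AGO3 was lower by both probes but not to the same extent, with -1.47 and -1.28 for probe 1 and -0.38 and -0.81 for probe 2. Its estimate was -1.38 ± 0.24 (SE) with a limma adjusted p of 0.020.

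AGO2 was lower in A549 by -1.15 with NC1 and -0.89 with miR-891b. The limma estimate of -1.02 ± 0.24 (SE) had an adjusted p of 0.041. Its call was lost under quantile normalization (adjusted p = 0.057), median scaling (0.053) and no filter on dim probes (0.068). AGO1 was read as 0.41 and 0.17 higher in A549 by probe 1 and as lower by probe 2, with -1.19 and -0.75. Its estimate from probe 1 was 0.29 ± 0.24 (SE) with a limma adjusted p of 0.398, and the mean over probes turned it to -0.34.

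DICER1 stood higher in A549, by 0.58 with NC1 and 0.87 with miR-891b. The limma estimate was 0.72 ± 0.24 (SE), 1.65-fold, with a 95% interval from 0.065 to 1.38 and an adjusted p of 0.089. TNRC6B differed by -0.69 and -0.82, with an estimate of -0.75 ± 0.23 (SE) and a limma adjusted p of 0.077, which became 0.048 under normexp with quantile normalization. TARBP2 differed by 0.18 with NC1 and -0.40 with miR-891b, and TNRC6A by 0.032 and -0.10, the latter turning sign with the scaling, with limma adjusted p of 0.780 and 0.917. Neither passed the test. The difference between the lines in the miR-891b change itself could not be tested with 1 array per group.

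A wider list of 55 genes of the pathway was then described, all on the array and 54 or 55 measured in each comparison. It holds cofactors and regulators of biogenesis (19 genes), of loading and Argonaute turnover (7), and of silencing (29). With miR-891b its median change was -0.036 in HCT116 and -0.14 in A549, beside -0.041 and -0.059 for all measured genes. In HCT116, 0 of 54 were at least 2-fold lower and 1 was higher. In A549, 2 of 55 were lower and 0 higher. These are 1.85% and 3.64% of the list, beside the 1.16% and 5.57% of all measured genes given above. The additive limma model called 0 of 55 for miR-891b, with 2 at an unadjusted p under 0.05.

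**Figure D5:**
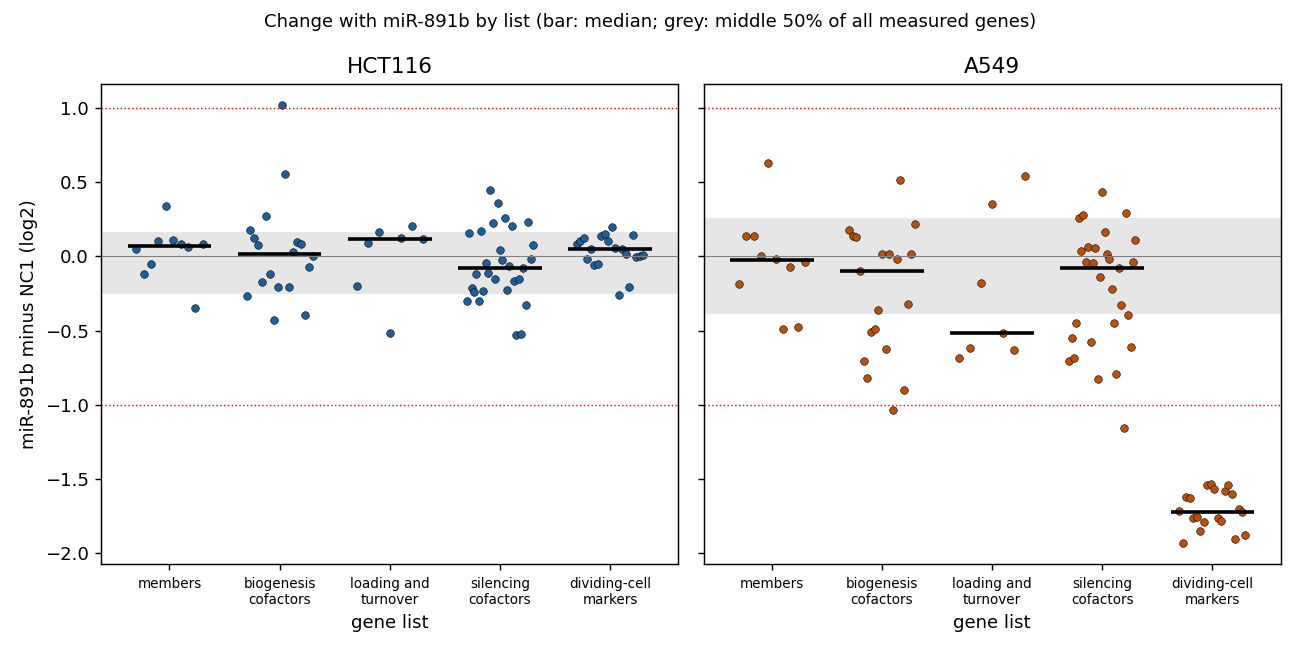
Change with miR-891b in log2 for each measured gene of 5 lists, in HCT116 on the left and A549 on the right; bars are medians, grey is the middle 50% of all measured genes and red dotted lines are 2-fold. The 10 machinery genes stay within 2-fold in both lines, and the 20 dividing-cell markers have a median of 0.050 in HCT116 and -1.72 in A549.

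PAN2, the catalytic subunit of the deadenylase that makes the first cut into the tail, had the lowest change of the list in A549, at -1.16, and -0.52 in HCT116. NCBP1, the large subunit of the nuclear cap-binding complex, changed by -1.04 in A549 and -0.21 in HCT116. The highest change in A549 belonged to ZSWIM8, which directs the degradation of Argonautes, at 0.54, with 0.12 in HCT116. In HCT116 the lowest was the helicase MOV10 at -0.53, with -0.080 in A549. The highest was LIN28A at 1.02, a dim reading whose spot lay in a disturbed area of HCT116 miR-891b (14.3% of nearby dim spots lit), with 0.017 in A549. AGO4, the remaining Argonaute, changed by -0.30 and -0.70, and TNRC6C, the remaining TNRC6 paralogue, by -0.015 and -0.037.

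The A549 values were measured in cells whose division genes also differed. In A549, all 20 markers of dividing cells were past 2-fold on the low side with miR-891b, with a median of -1.72. Among all measured genes, 5.57% were at least 2-fold lower there. In HCT116, 0 of 20 were past 2-fold, with a median of 0.050. The marker list was chosen with earlier results of these data known, so its count is not independent of them. The part of the lower division genes in the A549 values of the pathway genes was not tested. By group, the A549 medians were -0.10 for biogenesis, -0.080 for silencing and -0.52 for loading. In the loading group, 5 of 7 genes were below 0, beside 55.6% of all measured genes. They include FMR1 at -0.69, the translation repressor of fragile X, and HSP90AA1 at -0.62, a chaperone that opens Argonaute for loading. Its paralogue HSP90AB1 was at -0.18. The other 2 genes were above 0, with ZSWIM8 the highest at 0.54, and 0 of the 7 were past 2-fold. In HCT116 that group's median was 0.12.

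Between the lines, 11 of the 55 genes were lower in A549 and 1 was higher by the limma line term at an adjusted p under 0.05, 20.0% and 1.82% beside 16.4% and 15.5% of all genes. Those lower included NCBP2, ILF2 and KHSRP among biogenesis factors, HSP90AA1, HSP90AB1 and TSN among loading factors, and MOV10, PABPC1, DDX6 and DCP1A among silencing factors. KHSRP, a protein that promotes the processing of certain precursors, had an estimate of -1.62 ± 0.23 (SE) and an adjusted p of 0.013. PABPC1, the poly(A)-binding protein that TNRC6 contacts, had -1.36 ± 0.23 (SE) and 0.020. HSP90AB1 had -1.54 ± 0.25 (SE) and 0.017. RAN, the GTPase that exportin 5 needs, and the decapping enzyme DCP2 were 2-fold lower only on the miR-891b arrays, at -1.17 and -1.23, and the line term did not call them (limma adjusted p = 0.191 and 0.081). The RAN, NCBP2, TSN and DDX6 spots lay in disturbed areas of HCT116 miR-891b.

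LIN28B, which blocks the maturation of let-7 microRNAs, was the gene called higher in A549. It read 2.64 with NC1 and 2.01 with miR-891b there, and was not well above background on either HCT116 array. With the dimmest signal that was still well above background on the matching HCT116 array as the bound, it was at least 72.9-fold higher in A549 with NC1 and at least 35.5-fold with miR-891b. LIN28B passed the signal filter of the additive model only through the A549 arrays. Its call by the line term therefore adds no support to this difference. Within A549 its change with miR-891b was -0.63.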

How the data were processed

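Per the labels, 100 ng of total RNA per sample was labelled with Cy3 for 1-colour Agilent arrays. Per the file headers, Feature Extraction 11.5.1.1 subtracted background and removed spatial trends, and genome positions refer to hg19. Values in the deposited scanner files are linear intensity, not scaled across arrays. A second deposited table gives the authors' log2 values. How it was made is not given in the sources used here, and it differed from the main setting by a median of 0.0069 or less per array, so it has that scale.

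Outlier-marked spots were dropped, log2 processed signal was averaged per probe, and each array's 75th percentile was subtracted. The probe brightest on average over the 4 arrays stood for its gene. The additive model (line and transfected RNA) was fitted with limma 3.58.1 in R 4.3.3 on genes well above background on at least 2 of 4 arrays. Benjamini-Hochberg adjustment was over all of these genes. The fit was also run on data simulated from the fitted model itself, which cannot check the model's assumptions. Other values were computed in Python 3.11.15 (numpy 2.4.6, pandas 2.3.3).

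The members and lists, written from general knowledge, were chosen with earlier results of these data known. Named were all members, list genes past 2-fold in any difference, the lowest and highest of the list in each line, the 2 lowest and 2 highest microRNA host transcripts, and the 3 genes nearest to the member of widest range. A single list gene is counted but not reported by name here. AGO4, TNRC6C, FMR1, MIRLET7DHG and the genes said to be so were named outside these rules. All 10 members are current symbols in the RefSeq table for GRCh38.p14. Alternatives were quantile normalization, normexp (offset 50) with quantile normalization, median scaling, the authors' values, no filter on dim probes, the mean over probes, leaving out disturbed areas (within 10 rows and 10 columns, 10% of dim spots lit) and a 1.5-fold call.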

Additional observations from a re-analysis of the deposited data

Results flagged for a closer look

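With 1 array per group, 8 of the 10 genes had miR-891b changes of opposite sign in HCT116 and A549, and none of these differences was tested. Among all measured genes, 55.5% were below 0 in HCT116 and 55.6% in A549. The share of all genes with opposite signs was not computed, so the count is not read as a trait of the machinery. The A549 change minus the HCT116 change was -0.57 for TARBP2, 0.26 for AGO2, -0.24 for AGO1, 0.18 for AGO3, -0.14 for TNRC6A, -0.13 for DROSHA, -0.12 for XPO5 and -0.10 for DGCR8. The sign of the A549 change depended on the scaling for AGO1, DGCR8, DROSHA, TNRC6A and XPO5, and that of the HCT116 change for AGO3. TARBP2 and AGO2 kept opposite signs under each scaling tried. Negative control spots, which carry no gene and enter no comparison, were well above background at 11 of 308 spots on HCT116 miR-891b and at 2 on A549 miR-891b, and at 0 on either NC1 array.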

How the results depend on the processing

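The miR-891b results kept 0 called machinery genes under limma in all 7 other settings. All genes called for miR-891b went from 0 to 6 without a filter on dim probes. At 1.5-fold, 1 gene was higher in A549, which is DICER1. The median line difference with NC1 moved from -0.33 to -0.20 under normexp, -0.24 under median scaling, -0.54 with the mean over probes and 0.034 outside disturbed areas, where AGO2 and TNRC6B drop out. With miR-891b it moved from -0.61 to -0.52 under quantile normalization, -0.35 under normexp, -0.49 under median scaling and -0.25 outside disturbed areas. Genes at least 2-fold lower in A549 fell to 2 with NC1 and to 1 with miR-891b under normexp. The cause of these moves was not tested. On the miR-891b arrays a 1.5-fold call gave 5 lower and 1 higher, and quantile normalization 1 higher (DICER1). Turned signs, all far from a call, were found for the line effect of DROSHA (quantile 0.20, normexp 0.18, median scaling 0.072), TNRC6A (0.046, 0.051 and 0.063), TARBP2 (normexp 0.057) and AGO1 (mean over probes -0.34), and for the miR-891b effect of AGO1 (quantile 0.032, normexp 0.078), TNRC6A (0.049, 0.040 and median scaling 0.042), XPO5 (mean over probes -0.083) and AGO3 (-0.076). Over all genes in HCT116, 57.9% of those past 2-fold were higher, against 72.7% under normexp, 64.3% under median scaling, 50% under quantile normalization, 49.3% outside disturbed areas and 40.9% at 1.5-fold, and between the lines with miR-891b 35.6% against 46.3%. No paired analysis was possible because each group has 1 array and the labels carry no replicate numbers, although the additive model itself compares the RNAs within each line. Leaving out an array leaves no residual degree of freedom.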

Other observations

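Transcripts that host microRNAs are the substrates of the Microprocessor. Of 34 such transcripts on the array, named MIR followed by HG, 16 were well above background on all 4 arrays. Among these 16, MIR503HG had the highest mean change with miR-891b. Outside them, MIRLET7DHG was not well above background with NC1 in either line. It was at least 28.6-fold higher with miR-891b in HCT116 and at least 1.67-fold in A549. Its spot lay in a disturbed area of HCT116 miR-891b, with 14.2% of nearby dim spots lit. The part of this in its HCT116 value was not tested. MIR503HG read -1.003 and 0.100 in HCT116 with NC1 and miR-891b and 2.35 and 3.36 in A549. MIR503HG was thus 1.102 and 1.005 higher with miR-891b (limma adjusted p = 0.793 over both lines). MIR22HG changed by 0.42 and 0.93. The lowest mean changes of the 16 were those of MIR181A1HG, at -0.17 and -1.07, and MIR4697HG, at -0.23 and -0.33. Between the lines, 5 of 21 tested host transcripts were lower and 5 were higher in A549 by the limma line term at an adjusted p under 0.05, 23.8% each way beside 16.4% and 15.5% of all genes.

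Picked after their values were seen, 2 further host transcripts are given. MIRLET7BHG, which hosts let-7 microRNAs, was lower in A549 by -0.99 with NC1 and -0.91 with miR-891b (limma adjusted p = 0.045). Its readings were dim, at -2.04 with NC1 in HCT116 and -3.03 in A549, and a link with LIN28B was not tested. MIR17HG, the host of the miR-17-92 cluster, changed by 0.52 in HCT116 and -0.54 in A549, and this difference was not tested.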
